A study of Homo sapiens with 24 samples.

Results

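The cytosolic and mitochondrial heat shock chaperones and their co-chaperones were followed through a transcription-block chase in U2OS cells, an established human osteosarcoma line. The members are 42 gene symbols chosen by name: 2 heat shock factors, 7 cytosolic HSP70 and HSP110 genes, 2 HSP90 genes, 3 small heat shock proteins, 5 mitochondrial chaperones, 6 cytosolic J-domain proteins, 4 BAG co-chaperones, 5 HSP90 co-chaperones and the 8 subunits of the CCT chaperonin. Of these, 40 had a row among the 12547 endogenous genes of the deposited table, while HSPA1B and HSPA4L were not analysed here. HSPA1A and HSPA1B have almost the same coding sequence, so how reads from that pair were assigned is uncertain, and HSPA1A is reported with that limit.

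The study asked how QKI, an RNA-binding protein of the STAR family, and its isoform QKI7 affect mRNA stability. PolyA RNA of 4 genotypes was sequenced: sgQKI+QKI7-WT (QKI-targeted cells given QKI7-WT), sgQKI+QKI7-△KH (QKI-targeted cells given QKI7-△KH, which by its label lacks the KH domain, the RNA-binding fold of QKI), sgQKI+EV (QKI-targeted cells with EV) and sgNS+EV, the cells with the guide labelled sgNS and EV. Each was sampled at 0, 4 and 8 h of treatment with actinomycin D (5 µg/mL), which blocks transcription, together with sodium arsenite (200 µM), a thiol-reactive stressor. There were 2 libraries in each of the 12 groups, 24 in all. No time course without arsenite and none without actinomycin D is among these libraries, so effects of the agents cannot be told apart. Whether the 2 libraries of a group came from separate cultures, and whether the targeted cells were 1 clone or a pool, is not given in the sources used here, so the p-values measure the spread between these libraries.

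Heat shock proteins keep other proteins folded. HSP70 proteins bind unfolded stretches in cycles driven by ATP, J-domain proteins deliver clients to them and start ATP hydrolysis, and BAG proteins and HSP110 release the nucleotide. HSP90 acts later, on kinases and steroid receptors, with co-chaperones that pass on clients or set its ATPase rate. Small heat shock proteins hold aggregating proteins, the CCT ring folds actin and tubulin, and HSPD1, HSPE1, HSPA9 and TRAP1 serve the mitochondrial matrix. In stressed cells, arsenite included, the transcription factor HSF1 raises many of these genes by binding heat shock elements, inverted repeats of the unit NGAAN.

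Values are a signal that scales with the ERCC spike-in RNAs: the ERCC rows summed to 11480 to 11940 in each library, while the endogenous rows summed to 690400 to 1368000. Whether the signal is per transcript length is not given in the sources used here, so levels are compared within a gene only. Differences are log2 of value + 1, fitted for all genes with limma, and "higher" or "lower" is used of genes with a Benjamini-Hochberg adjusted p under 0.05 over all 12547 genes. QKI had 36 and 32.7 in the 0 h libraries of sgQKI+EV, against 60 and 48.2 in sgNS+EV, a difference of -0.63 (SE 0.14, adjusted p = 0.0264). With the add-backs it had 60.4 and 46.3 in sgQKI+QKI7-WT and 47.6 and 50.2 in sgQKI+QKI7-△KH, which carry the added QKI7. Of the mesenchymal and osteosarcoma markers, VIM, SPARC, COL1A1, CDH2 and RUNX2 were listed and COL1A2 and ALPL had no row; of the epithelial ones KRT8, KRT18 and EPCAM were listed, and of 4 blood cell markers none was. The lowest correlation between 2 libraries of a group was r = 0.9889, in sgQKI+QKI7-WT at 4 h.

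To show where heat shock elements lie, the 250 bases upstream of the annotated start were read from the RefSeq promoter table (build GRCh38.p14), which held 35 of the 40 measured members. A heat shock element of 3 units was taken as GAANNTTCNNGAA or its reverse complement TTCNNGAANNTTC, and a pair of units as GAANNTTC or TTCNNGAA. Each 3-unit element contains 2 of these overlapping pairs. The 3-unit form was found in 3 of the 35 (8.57%), HSPA8, CHORDC1 and DNAJB6, against 28 of 9377 measured genes with a promoter sequence (0.299%). A pair was found in 9 of the 35 (25.7%), against 8.41% of those measured genes. The windows of HSPA1A, HSPA8 and CHORDC1 are printed because HSPA1A had the late return described below and HSPA8 and CHORDC1 hold the 3-unit form, 5′ to 3′ on the gene's strand. Capitals mark the 3-unit elements of HSPA8 and CHORDC1 and the pair of HSPA1A, and single pairs elsewhere are left in lower case.
HSPA1A, chr6:31815293-31815542, plus strand: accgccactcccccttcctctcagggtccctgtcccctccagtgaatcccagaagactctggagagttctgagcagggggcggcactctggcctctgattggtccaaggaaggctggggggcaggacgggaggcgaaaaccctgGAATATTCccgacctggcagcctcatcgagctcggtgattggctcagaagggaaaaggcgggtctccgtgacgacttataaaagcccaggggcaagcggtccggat
HSPA8, chr11:123062137-123062386, minus strand: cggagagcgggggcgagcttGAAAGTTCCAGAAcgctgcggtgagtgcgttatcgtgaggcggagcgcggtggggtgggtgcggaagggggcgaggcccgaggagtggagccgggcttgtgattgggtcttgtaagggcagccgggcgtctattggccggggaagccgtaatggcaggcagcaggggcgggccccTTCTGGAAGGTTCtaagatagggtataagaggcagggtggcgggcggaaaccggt
CHORDC1, chr11:90223050-90223299, minus strand: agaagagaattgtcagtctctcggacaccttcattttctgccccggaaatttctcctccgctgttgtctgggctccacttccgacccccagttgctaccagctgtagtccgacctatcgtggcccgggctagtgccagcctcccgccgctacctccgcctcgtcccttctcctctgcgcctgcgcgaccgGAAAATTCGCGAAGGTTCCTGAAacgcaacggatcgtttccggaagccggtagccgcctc
The HSPA1A window holds 1 pair, whose first base lies at -106 from the start. HSPA8 holds 3-unit elements at -230 and -55, and CHORDC1 a run of overlapping ones beginning at -60, beside separate pairs at -205 and -23. A match describes the letters only, and alternative start sites lie outside these windows.

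On the spike-in scale most chaperone mRNAs declined during the chase, but less than the typical mRNA. At 8 h against 0 h, 33 of the 40 members were lower in sgQKI+QKI7-WT, 34 in sgQKI+QKI7-△KH, 34 in sgQKI+EV and 29 in sgNS+EV, where the shares of all genes that were lower were 90%, 90.6%, 90.5% and 88.2%. The median member changed by -0.45 log2 in sgQKI+QKI7-WT, -0.47 in sgQKI+QKI7-△KH, -0.56 in sgQKI+EV and -0.35 in sgNS+EV. Over all genes these medians were -0.77, -0.77, -0.82 and -0.70 in the same order of genotypes. Of the 40 members, 33, 32, 31 and 32 lay above the median of all genes. As a percentage of the 0 h signal, the median member kept 73.2% in sgQKI+QKI7-WT, 72.1% in sgQKI+QKI7-△KH, 67.6% in sgQKI+EV and 78.7% in sgNS+EV, and the median gene 55.2%, 55.9%, 53.3% and 58.5%. FKBP4 in sgNS+EV was the single member that was higher at 8 h in any genotype (0.383% of all genes were higher in sgNS+EV).

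**Figure D1:**
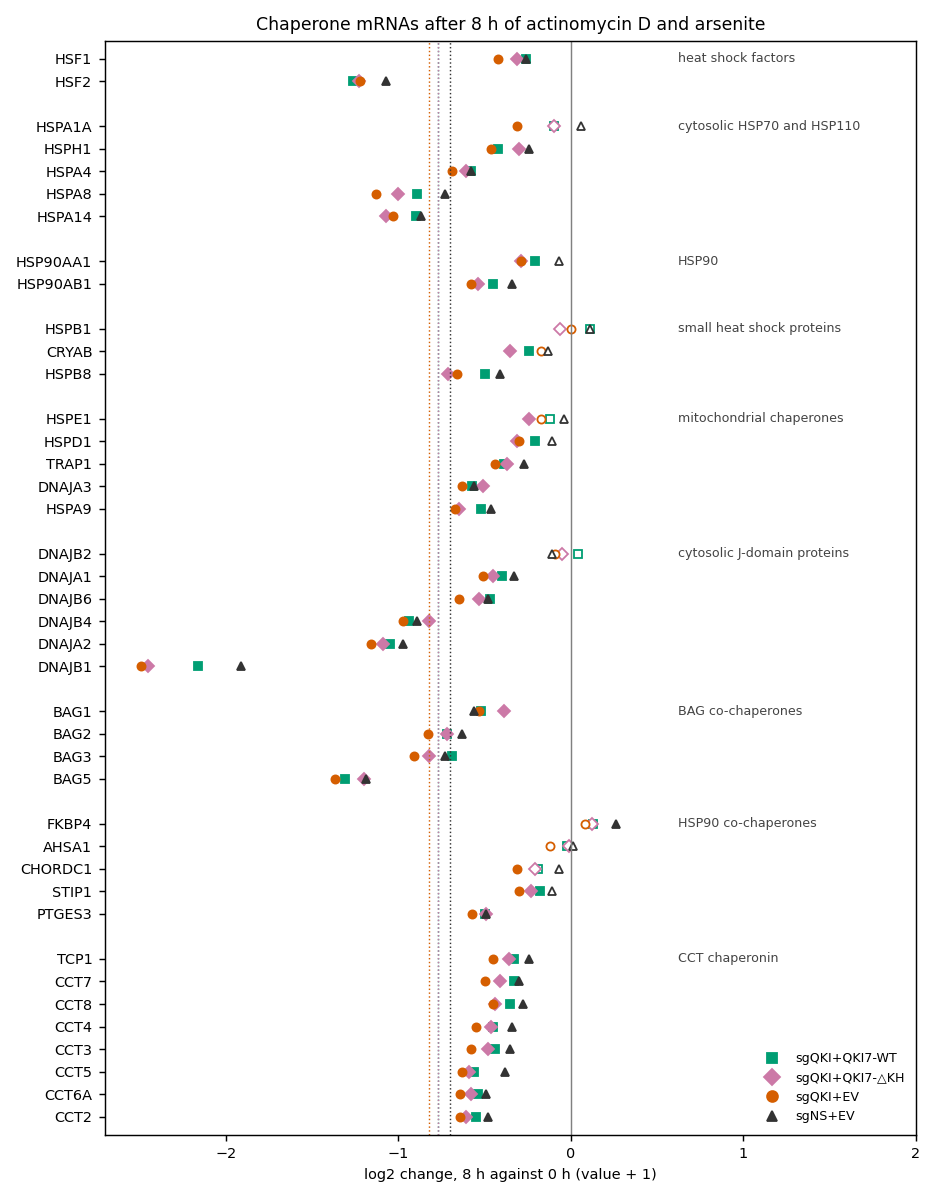
Log2 change from 0 h to 8 h (x axis) of the 40 measured members (rows, by role) in the 4 genotypes, with filled symbols for genes past the threshold, open symbols for the others and dotted lines at the median of all genes in each genotype. DNAJB1 stands farthest to the left, between -2.49 and -1.91, while FKBP4, HSPB1, AHSA1, DNAJB2 and HSPA1A lie near 0.

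These directions hold on the spike-in scale. When each library was instead divided by its endogenous total, the median of all genes shifted to -0.28 in sgQKI+QKI7-WT, -0.22 in sgQKI+QKI7-△KH, -0.26 in sgQKI+EV and -0.23 in sgNS+EV. The members then split into 16 higher and 7 lower in sgQKI+QKI7-WT, 19 and 8 in sgQKI+QKI7-△KH, 15 and 9 in sgQKI+EV, and 22 and 8 in sgNS+EV. Of all genes 11.7% were then higher and 54.1% lower in sgQKI+QKI7-WT, 13.6% and 48.8% in sgQKI+QKI7-△KH, 12.4% and 52.4% in sgQKI+EV, and 12.9% and 48.9% in sgNS+EV. The median member changed by 0.1, 0.12, 0.05 and 0.17 under library totals, in the same order of genotypes. Under quantile normalization the median member lay close to the median gene. They changed by 0.08 and 0.05 in sgQKI+QKI7-WT, 0.09 and 0.05 in sgQKI+QKI7-△KH, 0.08 and 0.06 in sgQKI+EV, and 0.11 and 0.05 in sgNS+EV. DNAJB1, BAG5 and HSF2 were lower on the spike-in scale and under library totals in all 4 genotypes.

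The heat shock factors parted in the chase. HSF1, the main stress-activated factor, had 142 and 168 at 0 h, 152 and 188 at 4 h and 136 and 122 at 8 h in sgQKI+QKI7-WT, 177 and 159 at 0 h, 164 and 177 at 4 h and 130 and 140 at 8 h in sgQKI+QKI7-△KH, 151 and 145 at 0 h, 167 and 141 at 4 h and 113 and 108 at 8 h in sgQKI+EV, and 152 and 168 at 0 h, 120 and 123 at 4 h and 124 and 142 at 8 h in sgNS+EV. Its 8 h change was -0.26, -0.31, -0.42 and -0.26 in that order, lower in all 4 on the spike-in scale, while under library totals it was called higher in sgQKI+QKI7-WT, sgQKI+QKI7-△KH and sgNS+EV. HSF2, a related factor active in development and in proteasome stress, fell to 11.3 and 10.2 at 8 h in sgQKI+QKI7-WT against 28.7 and 25.5 at 0 h, to 12.1 and 12.7 against 30.3 and 30.3 in sgQKI+QKI7-△KH, to 9.52 and 11 against 27 and 23.5 in sgQKI+EV, and to 11.3 and 11.3 against 26 and 23.8 in sgNS+EV. No 8 h library overlapped a 0 h library of its genotype. Between 39.7% and 45.4% of its 0 h signal was left. With quantile normalization the fall in sgNS+EV was -0.20 (adjusted p = 0.0714), and it stayed past the threshold in the other 3 genotypes.

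HSPA1A, the stress-inducible HSP70, fell and then came back. Its libraries had 313 and 357 at 0 h, 211 and 218 at 4 h and 332 and 293 at 8 h in sgQKI+QKI7-WT, and 395 and 361 at 0 h, 206 and 216 at 4 h and 346 and 360 at 8 h in sgQKI+QKI7-△KH. In sgQKI+EV they had 346 and 346 at 0 h, 221 and 180 at 4 h and 283 and 274 at 8 h, and in sgNS+EV 280 and 304 at 0 h, 159 and 155 at 4 h and 291 and 316 at 8 h. In all 4 genotypes both 4 h libraries lay below every 0 h and 8 h library. From 0 h to 4 h the limma change was -0.64 (SE 0.09, adjusted p = 5.04e-06) in sgQKI+QKI7-WT, -0.84 (SE 0.09, adjusted p = 4.6e-08) in sgQKI+QKI7-△KH, -0.79 (SE 0.09, adjusted p = 1.23e-07) in sgQKI+EV and -0.89 (SE 0.09, adjusted p = 5.24e-08) in sgNS+EV. From 4 h to 8 h it was 0.54 (SE 0.09, adjusted p = 1.12e-05), 0.74 (SE 0.09, adjusted p = 1.39e-06), 0.48 (SE 0.09, adjusted p = 7.25e-05) and 0.94 (SE 0.09, adjusted p = 2.65e-08) in the same order.

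Genes that were higher at 8 h than at 4 h were few: 0.271% of all genes in sgQKI+QKI7-WT, 0.462% in sgQKI+QKI7-△KH, 0.143% in sgQKI+EV and 1.46% in sgNS+EV. By size of that change HSPA1A ranked 27 of 12547 from the top in sgQKI+QKI7-WT, 14 in sgQKI+QKI7-△KH, 5 in sgQKI+EV and 8 in sgNS+EV. Both the fall and the return stayed past the threshold under library totals, quantile normalization, a pseudocount of 0.1, the filter on low values, the replicate block, fits of the compared groups alone and the removal of any 1 library of the compared groups, with a return of 0.33 to 1.10. The return was larger under library totals (1.03 in sgQKI+QKI7-WT, 1.04 in sgQKI+QKI7-△KH, 0.88 in sgQKI+EV and 1.10 in sgNS+EV). From 0 h to 8 h it was lower in sgQKI+EV, by -0.31 (SE 0.09, adjusted p = 0.0022). In the other genotypes the 8 h difference from 0 h did not pass: -0.10 in sgQKI+QKI7-WT, -0.10 in sgQKI+QKI7-△KH and 0.06 in sgNS+EV. Under library totals and quantile normalization HSPA1A was called higher at 8 h than at 0 h in every genotype.

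**Figure D2:**
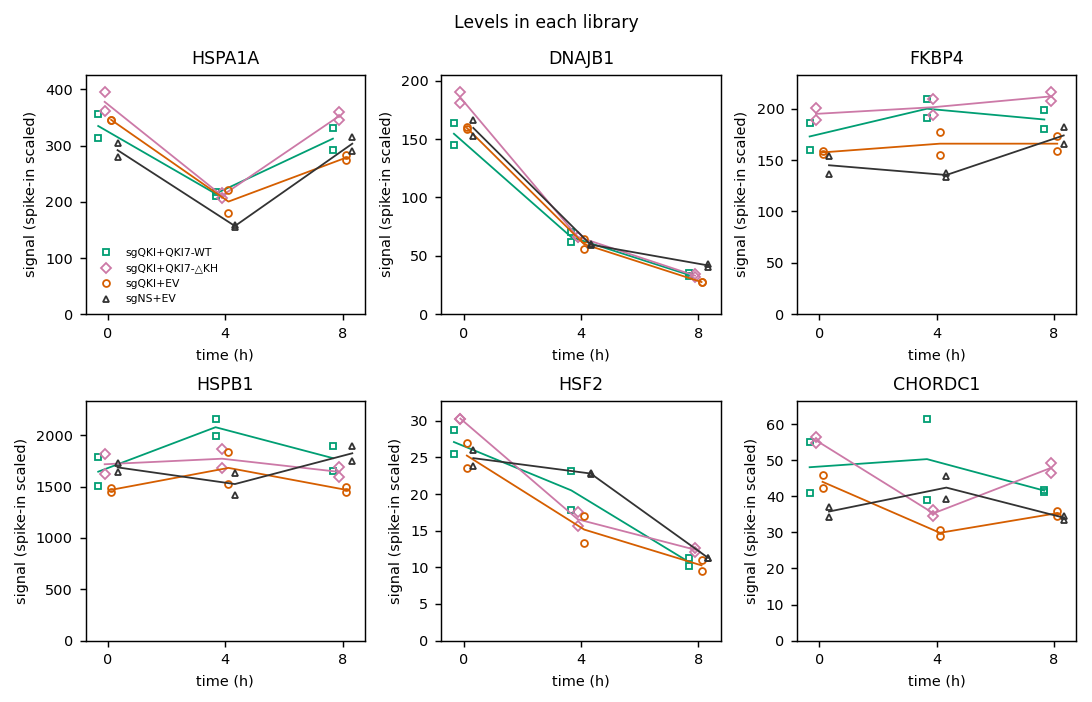
Signal per library (y axis, spike-in scaled, starting at 0) at 0, 4 and 8 h (x axis, genotypes set slightly apart) for 6 members, with lines through the means of the 2 libraries. HSPA1A is lowest at 4 h in all 4 genotypes, DNAJB1 falls at each step, and FKBP4 and HSPB1 stay near their 0 h level.

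The constitutive HSP70 genes declined without a return. HSPA8, the major housekeeping HSP70, fell to 973 and 918 at 8 h in sgQKI+QKI7-WT against 1717 and 1789 at 0 h, and to 972 and 1006 against 2042 and 1920 in sgQKI+QKI7-△KH. In sgQKI+EV it fell to 752 and 710 against 1629 and 1564, and in sgNS+EV to 901 and 951 against 1482 and 1588. The HSPA8 signal left at 8 h was 53.9% in sgQKI+QKI7-WT, 49.9% in sgQKI+QKI7-△KH, 45.8% in sgQKI+EV and 60.3% in sgNS+EV, all past the threshold and with no overlap of times. HSPA14, a ribosome-associated HSP70 relative, changed by -0.90, -1.07, -1.03 and -0.87. HSPA4, an HSP110-type nucleotide exchange factor, changed by -0.58, -0.61, -0.69 and -0.58. HSPH1, the stress-inducible HSP110, was higher at 8 h than at 4 h in sgQKI+QKI7-△KH, where it had 62 and 62.3 at 4 h and 72.3 and 74.4 at 8 h, a change of 0.24 (SE 0.07, adjusted p = 0.00693). In sgQKI+QKI7-WT it was lower over the same interval (-0.15), and in sgQKI+EV and sgNS+EV that step of 0.05 and 0.07 did not pass.

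Among the cytosolic J-domain proteins, 5 of 6 were lower at 8 h in every genotype on the spike-in scale and DNAJB2 was not past the threshold in any. Of all genes 90%, 90.6%, 90.5% and 88.2% were lower in sgQKI+QKI7-WT, sgQKI+QKI7-△KH, sgQKI+EV and sgNS+EV. DNAJB1, the stress-inducible HSP40 that works with HSPA1A, lost more than any other member. Its libraries had 145 and 164 at 0 h, 61.9 and 70.2 at 4 h and 35.1 and 32.4 at 8 h in sgQKI+QKI7-WT, and 190 and 181 at 0 h, 66.1 and 66.5 at 4 h and 31.8 and 34.3 at 8 h in sgQKI+QKI7-△KH. In sgQKI+EV they had 159 and 160 at 0 h, 64.4 and 55.5 at 4 h and 27.5 and 27.6 at 8 h, and in sgNS+EV 153 and 166 at 0 h, 60.2 and 59 at 4 h and 42.8 and 40.8 at 8 h. Each 8 h library lay below each 4 h library of its genotype, and those below each 0 h library. The signal left at 8 h was 21.9% in sgQKI+QKI7-WT, 17.8% in sgQKI+QKI7-△KH, 17.3% in sgQKI+EV and 26.2% in sgNS+EV. The limma change was -2.16 (SE 0.08, adjusted p = 1.84e-15), -2.45 (SE 0.08, adjusted p = 2.9e-16), -2.49 (SE 0.08, adjusted p = 1.45e-16) and -1.91 (SE 0.08, adjusted p = 1.55e-14), and only 1.52% of all genes had a lower mean change over the 4 genotypes.

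DNAJA2, a class A HSP40, followed at a distance with -1.05, -1.09, -1.16 and -0.97 in sgQKI+QKI7-WT, sgQKI+QKI7-△KH, sgQKI+EV and sgNS+EV. DNAJB4, a DNAJB1 relative, changed by -0.94, -0.82, -0.97 and -0.89, but its 4 h level differed between genotypes and is taken up with the decay differences. DNAJB6, a suppressor of polyglutamine aggregation, changed by -0.47, -0.53, -0.65 and -0.48, and DNAJA1 by -0.40, -0.45, -0.51 and -0.33. DNAJB2 had 54.1 and 48.3 at 8 h against 47.9 and 51.3 at 0 h in sgQKI+QKI7-WT, and 48.3 and 51.5 against 52 and 55.8 in sgNS+EV. Under library totals DNAJB2 was called higher at 8 h in every genotype and DNAJA1 in all but sgQKI+EV. Under quantile normalization DNAJB2 and DNAJB6 were called higher in every genotype, and DNAJA1 in sgQKI+QKI7-△KH and sgNS+EV.

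All 4 BAG co-chaperones were lower at 8 h in every genotype on the spike-in scale (90%, 90.6%, 90.5% and 88.2% of all genes in sgQKI+QKI7-WT, sgQKI+QKI7-△KH, sgQKI+EV and sgNS+EV). BAG5 lost most, with 10.3 and 10.6 at 8 h against 27 and 27.9 at 0 h in sgQKI+QKI7-WT, 11.8 and 13.3 against 30.3 and 29.9 in sgQKI+QKI7-△KH, 10.1 and 10.1 against 28.1 and 27.3 in sgQKI+EV, and 10.6 and 10.3 against 26.1 and 24.4 in sgNS+EV. These are changes of -1.31, -1.20, -1.37 and -1.19, with no overlap of times in any genotype. BAG3, the stress-inducible member that links HSP70 to small heat shock proteins and selective autophagy, changed by -0.69, -0.82, -0.91 and -0.73. BAG2, an inhibitor of the ubiquitin ligase CHIP, changed by -0.72, -0.72, -0.83 and -0.63. BAG1, which couples HSP70 to the proteasome, changed least, by -0.52, -0.39, -0.53 and -0.56. BAG1 was called higher under library totals in sgQKI+QKI7-△KH and under quantile normalization in all 4 genotypes.

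HSPB1 (HSP27) had 1504 and 1787 at 0 h, 2163 and 1995 at 4 h and 1900 and 1655 at 8 h in sgQKI+QKI7-WT, 1814 and 1622 at 0 h, 1678 and 1866 at 4 h and 1591 and 1696 at 8 h in sgQKI+QKI7-△KH, 1490 and 1447 at 0 h, 1836 and 1529 at 4 h and 1495 and 1443 at 8 h in sgQKI+EV, and 1642 and 1733 at 0 h, 1629 and 1421 at 4 h and 1750 and 1900 at 8 h in sgNS+EV. The 0 h and 8 h libraries overlapped in sgQKI+QKI7-WT, sgQKI+QKI7-△KH and sgQKI+EV and did not overlap in sgNS+EV, and the changes of 0.11, -0.06, 0.00 and 0.11 did not pass, while under library totals they were 0.66, 0.53, 0.62 and 0.63, all called. CRYAB (alpha B-crystallin) was lower at 8 h in sgQKI+QKI7-WT by -0.24 (SE 0.09, adjusted p = 0.0135) and in sgQKI+QKI7-△KH by -0.35 (SE 0.09, adjusted p = 7e-04). In sgQKI+EV and sgNS+EV its change was -0.17 and -0.13 and did not pass. Under library totals and quantile normalization CRYAB was called higher at 8 h in every genotype. HSPB8, the partner of BAG3, was lower in every genotype on the spike-in scale, by -0.50, -0.71, -0.66 and -0.41. Under quantile normalization HSPB8 was called higher in all but sgQKI+QKI7-△KH.

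The stress-inducible HSP90AA1 changed by -0.21 in sgQKI+QKI7-WT, -0.29 in sgQKI+QKI7-△KH, -0.29 in sgQKI+EV and, not past the threshold, -0.07 in sgNS+EV. Under library totals and quantile normalization HSP90AA1 was called higher in every genotype. The constitutive HSP90AB1 was lower in all 4, by -0.45, -0.54, -0.58 and -0.34, but was called higher in sgNS+EV under library totals. FKBP4 (FKBP52), an immunophilin of steroid receptor complexes, had 199 and 180 at 8 h against 160 and 186 at 0 h in sgQKI+QKI7-WT, 208 and 216 against 201 and 189 in sgQKI+QKI7-△KH, 173 and 159 against 159 and 156 in sgQKI+EV, and 166 and 182 against 136 and 154 in sgNS+EV. On the spike-in scale it was past the threshold in sgNS+EV, at 0.26 (SE 0.09, adjusted p = 0.00833), with both 8 h libraries above both at 0 h; whether this differs from sgQKI+EV was tested and did not pass (decay difference -0.19, SE 0.12, adjusted p = 0.45). Without 0 h replicate 1 of sgNS+EV the change was 0.17 (adjusted p = 0.124), and without its 8 h replicate 2 it was 0.20 (adjusted p = 0.0896). Under library totals FKBP4 was called higher in all 4 genotypes (0.67, 0.72, 0.69 and 0.78 in sgQKI+QKI7-WT, sgQKI+QKI7-△KH, sgQKI+EV and sgNS+EV), as it was under quantile normalization.

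AHSA1, the activator of the HSP90 ATPase, had 176 and 168 at 8 h against 161 and 189 at 0 h in sgQKI+QKI7-WT, 193 and 198 against 197 and 196 in sgQKI+QKI7-△KH, 153 and 152 against 168 and 164 in sgQKI+EV, and 170 and 181 against 167 and 181 in sgNS+EV. Its changes of -0.02, -0.01, -0.12 and 0.01 did not pass, while under library totals they were 0.52, 0.58, 0.50 and 0.53, all called. STIP1 (HOP), which bridges HSP70 and HSP90, was lower by -0.18, -0.23 and -0.30 in sgQKI+QKI7-WT, sgQKI+QKI7-△KH and sgQKI+EV, and its -0.11 in sgNS+EV did not pass. These hold on the spike-in scale, as STIP1 was called higher in every genotype under library totals and quantile normalization. PTGES3 (p23), which stabilises the closed HSP90 dimer, was lower in all 4, by -0.50, -0.49, -0.57 and -0.49. CHORDC1 (morgana), an HSP90-binding protein whose promoter letters are printed above, was lower in sgQKI+EV, by -0.31 (SE 0.14, adjusted p = 0.0421), and did not pass at -0.19, -0.21 and -0.07 in sgQKI+QKI7-WT, sgQKI+QKI7-△KH and sgNS+EV. That call holds on the spike-in scale only. CHORDC1 was called higher under quantile normalization in all 4 genotypes and under library totals in all but sgQKI+EV.

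All 8 CCT subunits were lower at 8 h in every genotype on the spike-in scale, each by less than the median gene. Of all genes 90%, 90.6%, 90.5% and 88.2% were lower in sgQKI+QKI7-WT, sgQKI+QKI7-△KH, sgQKI+EV and sgNS+EV. Under library totals TCP1, CCT7 and CCT8 were called higher in every genotype, as was TCP1 under quantile normalization. Their changes ran between -0.56 and -0.33 in sgQKI+QKI7-WT, -0.61 and -0.36 in sgQKI+QKI7-△KH, -0.64 and -0.45 in sgQKI+EV, and -0.49 and -0.24 in sgNS+EV. TCP1, the alpha subunit, changed by -0.33, -0.36, -0.45 and -0.24, and CCT2, the beta subunit, by -0.55, -0.61, -0.64 and -0.48. The median subunit changed by -0.44, -0.47, -0.57 and -0.34 in the 4 genotypes.

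Among the mitochondrial chaperones the chaperonin pair and the HSP70 pair differed in size of change. HSPD1 and HSPE1 (HSP60 and HSP10), the ring and lid of the matrix chaperonin, had small changes. HSPD1 had 614 and 596 at 8 h against 686 and 715 at 0 h in sgQKI+QKI7-WT and 578 and 590 against 619 and 643 in sgNS+EV. HSPE1 had 442 and 406 against 458 and 461 in sgQKI+QKI7-WT and 340 and 376 against 364 and 373 in sgNS+EV. HSPD1 was lower in sgQKI+QKI7-WT, sgQKI+QKI7-△KH and sgQKI+EV (-0.21, -0.31 and -0.30), and HSPE1 in sgQKI+QKI7-△KH (-0.24). Under library totals and quantile normalization both genes were called higher in every genotype. HSPA9 (mortalin), the matrix HSP70, and its J-domain partner DNAJA3 were lower in all 4: HSPA9 by -0.52, -0.65, -0.67 and -0.46, and DNAJA3 by -0.57, -0.51, -0.63 and -0.56. TRAP1, the matrix HSP90, changed by -0.39, -0.37, -0.44 and -0.27. Under quantile normalization TRAP1 was called higher in every genotype and DNAJA3 in all but sgNS+EV. Under library totals TRAP1 was called higher in all but sgQKI+QKI7-WT.

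The early and the late part of the chase differed between members. At 4 h against 0 h, 12 members were lower and 4 higher in sgQKI+QKI7-WT, 27 lower in sgQKI+QKI7-△KH, 24 in sgQKI+EV and 25 in sgNS+EV, against 42.9% lower and 2.66% higher of all genes in sgQKI+QKI7-WT, and 73.6%, 63.8% and 59.8% lower in sgQKI+QKI7-△KH, sgQKI+EV and sgNS+EV. The 4 that were higher in sgQKI+QKI7-WT were HSPB1 (0.34), STIP1 (0.27), HSP90AA1 (0.25) and CCT7 (0.22). The 4 h libraries of sgQKI+QKI7-WT stood apart from each other: HSP90AA1 had 946 and 760, HSPE1 599 and 479 and CHORDC1 61.6 and 39.1. Results that rest on them carry that spread.

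From 4 h to 8 h, 34 members were lower in sgQKI+QKI7-WT, 20 in sgQKI+QKI7-△KH, 29 in sgQKI+EV and 16 in sgNS+EV (all genes: 83.7%, 58.2%, 79.2% and 64.9%). Beside HSPA1A, members higher in that interval were CHORDC1 (0.43) and HSPH1 in sgQKI+QKI7-△KH, and FKBP4 (0.36), HSPB1 (0.26), DNAJB2 (0.23) and AHSA1 (0.19) in sgNS+EV. HSF2, BAG5, DNAJA2 and HSPA14 in sgNS+EV lost more after 4 h than before it: HSF2 changed by -0.12 and then -0.95, and HSPA14 by -0.21 and then -0.66. DNAJB1 and BAG3 showed the other order in sgNS+EV, with -1.40 and then -0.50 for DNAJB1, and -0.67 and then -0.06 for BAG3. The early and late steps share the 4 h libraries, so an error there moves both in opposite directions.

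**Figure D3:**
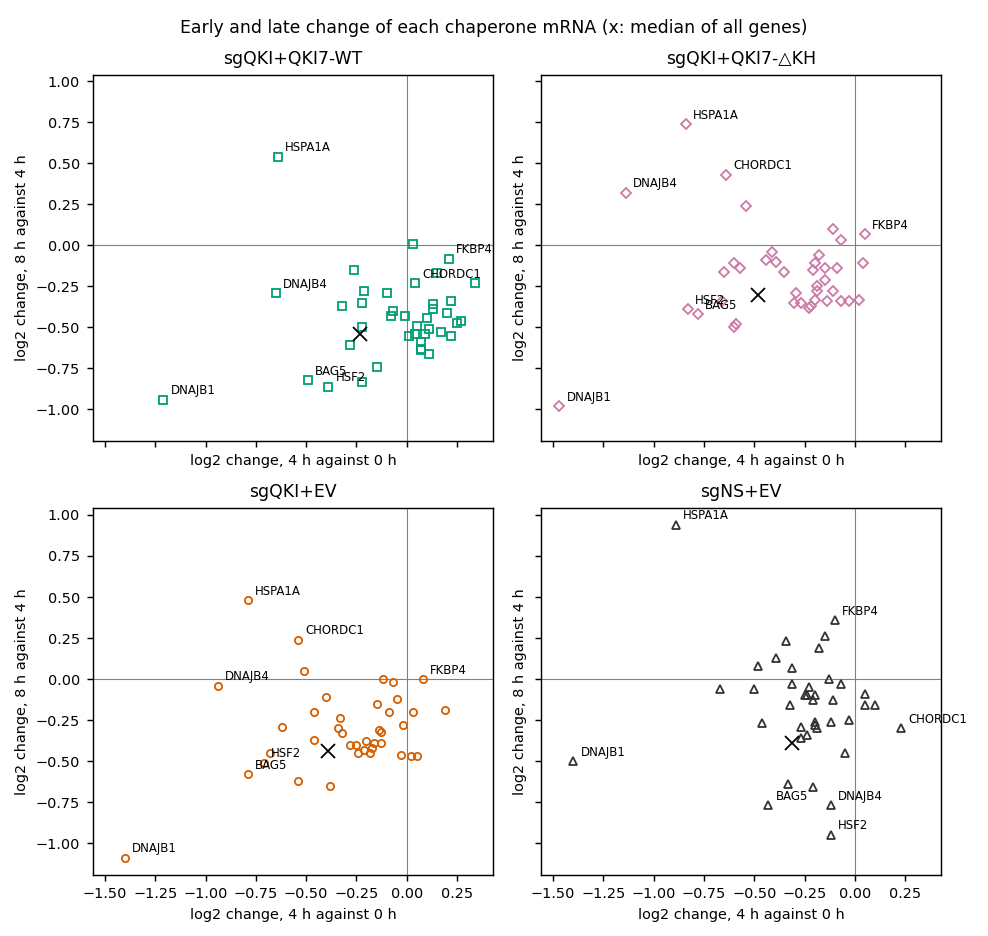
Log2 change from 0 h to 4 h (x axis) against that from 4 h to 8 h (y axis) for the 40 members in each genotype, with a cross at the median of all genes. HSPA1A lies at the upper left in all 4 genotypes, DNAJB1 has the most negative early change, and HSF2 in sgNS+EV shows a small early and a large late loss.

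Before the chase, few chaperone mRNAs were called between sgQKI+EV and sgNS+EV. CRYAB was the 1 member past the threshold, lower in sgQKI+EV (1.37% of all genes were lower and 0.183% higher). It had 138 and 146 in sgQKI+EV against 186 and 185 in sgNS+EV, a difference of -0.38 (SE 0.09, adjusted p = 0.0268) in limma with no overlap. At 8 h it was lower again, with 129 and 124 against 155 and 184 and a difference of -0.42 (SE 0.09, adjusted p = 0.00132). At 0 h in sgQKI+QKI7-WT it had 146 and 150, near sgQKI+EV, and in sgQKI+QKI7-△KH 181 and 173. The 0 h call was lost without any 1 of the 4 libraries, with differences of -0.42 to -0.34 and adjusted p of 0.163 to 0.196. It was also lost under library totals (-0.20, adjusted p = 0.0783), under which 18 other members were called higher in sgQKI+EV (7.41% of all genes). The 8 h call was lost under library totals (-0.14, adjusted p = 0.251) and quantile normalization (-0.15, adjusted p = 0.184). HSPA1A, with 346 and 346 in sgQKI+EV against 280 and 304 in sgNS+EV, differed by 0.25 (SE 0.09, adjusted p = 0.172) and did not pass, nor did CHORDC1 with 45.9 and 42.2 against 37.2 and 34.4 (0.29, SE 0.14, adjusted p = 0.355).

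Between the add-backs at 0 h, 6 members were lower in sgQKI+QKI7-WT than in sgQKI+QKI7-△KH, and none was higher (3.71% of all genes were lower). HSPA14 had 33.4 and 34.2 in sgQKI+QKI7-WT against 43.5 and 41.3 in sgQKI+QKI7-△KH, BAG2 77.9 and 74 against 96.4 and 92.2, and HSPB8 46 and 48.4 against 61.2 and 55.4. CCT2 had 353 and 369 in sgQKI+QKI7-WT against 445 and 418 in sgQKI+QKI7-△KH, HSPH1 76.4 and 76.4 against 91.4 and 90.3, and DNAJA1 357 and 361 against 428 and 421. The sgQKI+QKI7-WT and sgQKI+QKI7-△KH libraries of these 6 did not overlap. The 6 were picked by a test on these same libraries, so this is not separate support. Their differences ran between -0.32 for HSPA14 and -0.24 for DNAJA1, with adjusted p between 0.0348 (HSPB8) and 0.0498 (HSPH1). The median member differed by -0.18 and the median gene by -0.15, and none of the 6 was called under library totals, quantile normalization, a fit of the 2 groups alone or without any 1 of the 4 libraries.

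No member was past the threshold in sgQKI+QKI7-WT against sgQKI+EV at 0 h with limma, where 11 of all genes were called (0.0877%); 1 member and 596 genes had an unadjusted p under 0.05. In sgQKI+QKI7-△KH against sgQKI+EV, 26 members were higher and none lower (12.6% and 0.12% of all genes). The sgQKI+QKI7-△KH libraries lay above the sgQKI+EV libraries for all 26. Those 26 were picked by a test on these same libraries, so the separation is not separate support. The median member was higher by 0.27 and the median gene by 0.19, and none of the 26 was called after scaling to library totals or quantile normalization. The count was 0 without either sgQKI+EV library or without replicate 1 of sgQKI+QKI7-△KH, and 19 without replicate 2 of sgQKI+QKI7-△KH.

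By role, those 26 were 4 of the 5 HSP70 and HSP110 genes, HSP90AA1, 2 small heat shock proteins, 3 mitochondrial chaperones, 3 J-domain proteins, 2 BAG proteins, 3 HSP90 co-chaperones and all 8 CCT subunits. HSPA8 had 2042 and 1920 in sgQKI+QKI7-△KH against 1629 and 1564 in sgQKI+EV, HSPA4 445 and 416 against 345 and 344, HSPA14 43.5 and 41.3 against 31.7 and 32.6 and HSPH1 91.4 and 90.3 against 75.4 and 73.5. The largest differences were 0.39 for HSPA14, 0.38 for HSPE1 and 0.36 for HSP90AA1, and the smallest 0.22 for CCT3. HSP90AA1 had 852 and 828 in sgQKI+QKI7-△KH against 668 and 645 in sgQKI+EV, and of the small heat shock proteins HSPB8 61.2 and 55.4 against 49.9 and 47.1 and CRYAB 181 and 173 against 138 and 146. In the mitochondrial group HSPE1 had 519 and 502 in sgQKI+QKI7-△KH against 390 and 395 in sgQKI+EV, HSPD1 817 and 776 against 657 and 619 and HSPA9 422 and 398 against 342 and 335. Of these 10, only CRYAB in sgQKI+QKI7-△KH was not above both sgNS+EV libraries (186 and 185). Among the rest of the 26, DNAJB2 was not either (59 and 53.5 against 52 and 55.8). The 26 were picked for high sgQKI+QKI7-△KH libraries, so their place above sgNS+EV is not separate support.

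The J-domain members DNAJA1 and DNAJB6, with DNAJB2, had the same direction: DNAJA1 had 428 and 421 in sgQKI+QKI7-△KH against 351 and 350 in sgQKI+EV, DNAJB6 67.8 and 63.4 against 51.8 and 52.4 and DNAJB2 59 and 53.5 against 47.4 and 45.9. The co-chaperones were alike, as BAG2 had 96.4 and 92.2 in sgQKI+QKI7-△KH against 75.4 and 75.4 in sgQKI+EV and BAG1 29.2 and 28.5 against 25.1 and 23.8. FKBP4 had 201 and 189 in sgQKI+QKI7-△KH against 159 and 156 in sgQKI+EV, STIP1 352 and 336 against 281 and 275 and AHSA1 197 and 196 against 168 and 164. Within the CCT ring TCP1 had 441 and 424 in sgQKI+QKI7-△KH against 366 and 362 in sgQKI+EV, CCT2 445 and 418 against 347 and 343, CCT3 539 and 500 against 452 and 438 and CCT4 518 and 484 against 423 and 408. The other 4 subunits followed, with CCT5 at 487 and 444 in sgQKI+QKI7-△KH against 374 and 376 in sgQKI+EV, CCT6A 551 and 524 against 443 and 439, CCT7 666 and 616 against 534 and 530 and CCT8 877 and 822 against 689 and 662. Some members that did not pass had differences of the same size, such as HSP90AB1 (0.25), TRAP1 (0.25) and CHORDC1 (0.33).

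**Figure D4:**
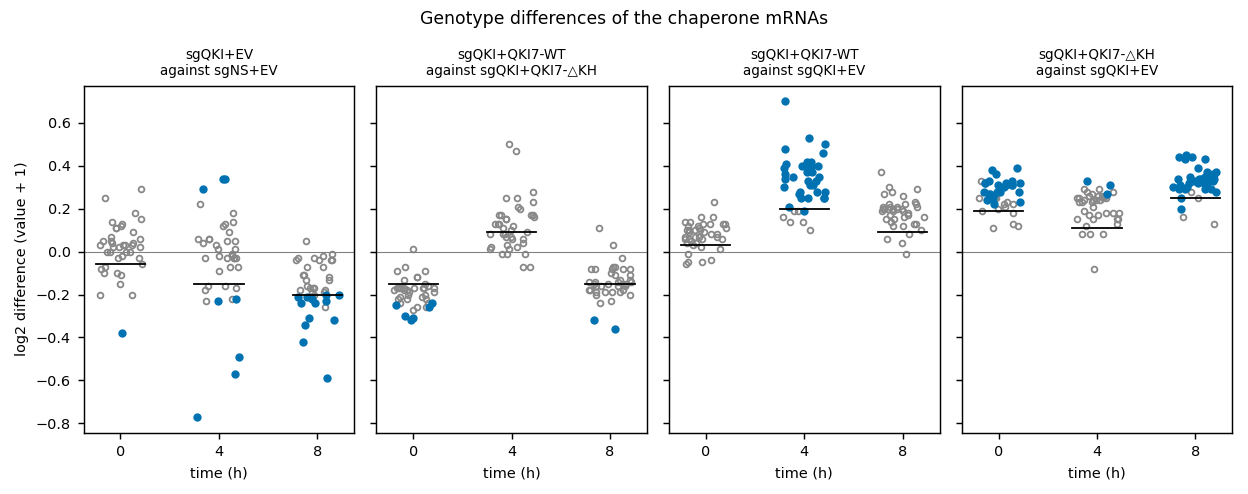
Log2 difference between genotypes (y axis) of the 40 members at 0, 4 and 8 h (x axis, points spread sideways) in 4 comparisons, with filled points past the threshold and a black bar at the median of all genes. Members move with the bar in most panels, and DNAJB1 at 8 h and DNAJB4, HSF2 and CHORDC1 at 4 h stand below it in sgQKI+EV against sgNS+EV.

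During the chase more members were called between sgQKI+EV and sgNS+EV, as were more of all genes. The called share at 4 h was 20% of members and 40.8% of all genes. At 8 h it was 32.5% and 34.3%. In sgQKI+EV against sgNS+EV, 3 were higher and 5 lower at 4 h (all genes 6.74% and 34%), and 13 lower at 8 h (34% of all genes). At 4 h HSF1, HSPA1A and FKBP4 were higher in sgQKI+EV (0.34, 0.34 and 0.29), the HSPA1A call being lost without 4 h replicate 1 of sgQKI+EV (0.20, adjusted p = 0.105). DNAJB4, HSF2, CHORDC1, PTGES3 and DNAJA2 were lower (-0.77, -0.57, -0.49, -0.23 and -0.22). At 8 h DNAJB1 differed most, with 27.5 and 27.6 in sgQKI+EV against 42.8 and 40.8 in sgNS+EV, a difference of -0.59 (SE 0.08, adjusted p = 5.92e-05). That call held under each of the 10 alternatives tried, with values between -0.62 and -0.32. The others lower at 8 h were HSPA8, HSPA4, HSPB1, HSPB8, CRYAB, DNAJB6, AHSA1 and 5 CCT subunits, at -0.42 (CRYAB) to -0.20 (AHSA1), where the median gene differed by -0.20.

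In sgQKI+QKI7-WT against sgQKI+QKI7-△KH, no member was called at 4 h with limma, where 9 members and 2995 genes had an unadjusted p under 0.05 (0.98% of all genes were called), and HSPH1 (-0.36) and BAG2 (-0.32) were lower at 8 h (4.84% of all genes). Against sgQKI+EV, sgQKI+QKI7-WT had 34 members higher at 4 h (37.7% of all genes) and none called at 8 h (0.526% of all genes; 25 members and 2173 genes had an unadjusted p under 0.05). sgQKI+QKI7-△KH had 3 members higher at 4 h (2.16%) and 36 at 8 h (44.2%). The largest of the sgQKI+QKI7-WT differences at 4 h was CHORDC1, with 61.6 and 39.1 in sgQKI+QKI7-WT against 30.7 and 29.1 in sgQKI+EV (0.70, SE 0.14, adjusted p = 0.00121), where the 2 sgQKI+QKI7-WT libraries lie far apart. The add-back comparisons with sgQKI+EV share its libraries, so their values are given side by side and not as separate evidence.

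The decay difference, the log2 change in 1 genotype minus that in another, compares the loss of an mRNA between genotypes. Over 0 to 8 h in sgQKI+EV minus sgNS+EV, DNAJB1 was the 1 member called (0.669% of all genes were lower and 0.00797% higher). It changed by -2.49 in sgQKI+EV against -1.91 in sgNS+EV, a decay difference of -0.59 (SE 0.11, adjusted p = 0.025). The 0 to 4 h decay difference was 0.00 and that for 4 to 8 h was -0.59 (SE 0.11, adjusted p = 0.0265). The add-backs gave 8 h changes of -2.16 in sgQKI+QKI7-WT and -2.45 in sgQKI+QKI7-△KH, and their difference of 0.30 (SE 0.11, adjusted p = 1) did not pass. Without any 1 of the 8 libraries involved, the 0 to 8 h call in sgQKI+EV minus sgNS+EV was lost, with adjusted p of up to 0.171. Over all alternatives tried its value was between -0.64 and -0.42. The median member differed by -0.18 and the median gene by -0.14.

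In shorter intervals of sgQKI+EV minus sgNS+EV, 3 members were lower over 0 to 4 h (8.89% of all genes). DNAJB4 had 7.85 and 9.21 at 4 h in sgQKI+EV against 15 and 15.4 in sgNS+EV. At 0 h it had 18.3 and 16.2 in sgQKI+EV and 17.5 and 15.8 in sgNS+EV, which gives a decay difference of -0.81 (SE 0.23, adjusted p = 0.0365). CHORDC1 had 30.7 and 29.1 in sgQKI+EV against 45.7 and 39.2 in sgNS+EV (-0.78, SE 0.2, adjusted p = 0.0347). At 0 h CHORDC1 had 45.9 and 42.2 in sgQKI+EV and 37.2 and 34.4 in sgNS+EV. This decay difference thus includes a 0 h difference that did not pass, and the sgNS+EV mean at 4 h was 118% of 0 h. HSF2 had 17 and 13.3 in sgQKI+EV against 22.9 and 22.7 in sgNS+EV (-0.59, SE 0.17, adjusted p = 0.0371). For each, both sgQKI+EV libraries lay below both sgNS+EV libraries at 4 h, and by 8 h the genotypes lay close: DNAJB4 had 8.74 and 7.81 in sgQKI+EV against 8.67 and 8.32 in sgNS+EV. The 3 members were picked by a test that used those 4 h libraries, so their separation is not separate support. These 0 to 4 h calls were lost without 7 of the 8 single libraries for DNAJB4 (adjusted p up to 0.171) and without 6 of 8 for CHORDC1 and for HSF2 (up to 0.171 and 0.175). QKI itself had 15.3 and 17.1 in sgQKI+EV against 54 and 50.1 in sgNS+EV at 4 h.

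Over 4 to 8 h, 1 member was higher and 6 lower in sgQKI+EV minus sgNS+EV (1.39% and 11.6% of all genes). DNAJB4 was the higher one (0.73, SE 0.23, adjusted p = 0.0397). The lower ones were DNAJB1, HSF1 (-0.59, SE 0.15, adjusted p = 0.0265), HSPA1A (-0.47, SE 0.12, adjusted p = 0.0283), TRAP1 (-0.42), CCT7 (-0.36) and CCT3 (-0.32). HSPA1A came back by 0.48 in sgQKI+EV against 0.94 in sgNS+EV, from a 4 h level that was higher in sgQKI+EV (221 and 180) than in sgNS+EV (159 and 155). HSF1 fell to 113 and 108 at 8 h in sgQKI+EV against 167 and 141 at 4 h, while sgNS+EV had 124 and 142 against 120 and 123. The calls for HSPA1A and HSF1 were also lost under library totals and quantile normalization and that for DNAJB4 under quantile normalization. Single libraries ended them too: 6 of 8 for HSPA1A, 5 of 8 for HSF1 and for DNAJB1, and 7 of 8 for DNAJB4. TRAP1 had 111 and 106 at 8 h and 165 and 137 at 4 h in sgQKI+EV, against 116 and 134 and 131 and 127 in sgNS+EV.

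In sgQKI+QKI7-WT minus sgQKI+QKI7-△KH, no gene at all passed over 0 to 8 h with limma (0% of all genes), and 1 member and 120 genes had an unadjusted p under 0.05. Over 0 to 4 h, 18 members were higher (16% of all genes) and over 4 to 8 h 6 were lower (16.1% of all genes). CHORDC1 was in both, at 0.69 (SE 0.2, adjusted p = 0.0337) and -0.67 (SE 0.2, adjusted p = 0.0358). The same sgQKI+QKI7-WT libraries at 4 h enter both intervals with opposite sign, and those libraries differ from each other as given above.

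As a description of sequence, the QKI core ACTAAC (written as DNA) was searched on the sense strand of 1 GENCODE 29 transcript per gene. It was found in the 3′ UTR of 6 of the 40 measured members (15.0%), against 17.2% of 11336 measured genes with a transcript, whose 3′ UTRs are longer (median 640 bases for the members and 1110 for the measured genes). The members were HSF2, DNAJB4, DNAJA2, DNAJB6, BAG2 (2 sites) and FKBP4. DNAJB1, HSPA1A and CHORDC1 held none in the transcript searched. Sites of HSF2 and DNAJB4, which had an early decay difference, and of DNAJA2 and FKBP4, which did not, are printed with the core in capitals.
HSF2: tttgcttttctcACTAACcacacactcttg
DNAJB4: gggaaaataaacACTAACtgctgcttatgg
DNAJA2: tgtataatttaaACTAACcacaaagcttta
FKBP4: ccaacaataatcACTAACtcaagcatttat
HSF2 and DNAJB4 are among the 3 members with a lower early decay difference in sgQKI+EV minus sgNS+EV, and the third, CHORDC1, holds no such core, while FKBP4 holds one and had an early decay difference of 0.17 that did not pass. DNAJA2 had -0.21, also not past the threshold. BAG2 and DNAJB6, the other members with the core in the 3′ UTR, were not called in that interval either.

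Other genes of the chaperone network gave the surroundings of these results. At 8 h against 0 h none of the 67 measured genes in 5 further lists was higher in any genotype, and most were lower, as were most of all genes (90%, 90.6%, 90.5% and 88.2% of all genes in sgQKI+QKI7-WT, sgQKI+QKI7-△KH, sgQKI+EV and sgNS+EV). Of 11 HSP70, small heat shock and HSF1-linked genes, 8, 11, 11 and 7 were lower in sgQKI+QKI7-WT, sgQKI+QKI7-△KH, sgQKI+EV and sgNS+EV, and of 15 further HSP90 and HSP70 co-chaperones 12, 12, 12 and 9. Of 20 other J-domain proteins 18, 20, 18 and 18 were lower, of 10 prefoldin and CCT cofactors 6, 8, 6 and 5, and of 11 mitochondrial co-chaperones and proteases 11, 11, 10 and 11. IER5, an HSF1-linked immediate-early gene, changed by -4.18, -4.21, -4.52 and -4.29, a larger loss than that of any member. GRPEL2, a nucleotide exchange factor of HSPA9, changed by -2.06, -2.04, -2.12 and -1.97, and HSPA13, a microsomal HSP70, by -2.02, -1.92, -2.24 and -1.85. In sgQKI+QKI7-WT against sgQKI+QKI7-△KH at 0 h, DNAJC19 (-0.36), HSPB11 (-0.32) and VBP1 (-0.29) had the largest falls of the 4 genes lower in sgQKI+QKI7-WT, and in sgQKI+QKI7-△KH against sgQKI+EV 18 of the 67 were higher (12.6% of all genes), led by DNAJC15 (0.46), DNAJC2 (0.39), SUGT1 (0.33). None of the 67 passed in sgQKI+EV against sgNS+EV at 0 h or in either 0 to 8 h decay difference.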

How the data were processed

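PolyA RNA was sequenced on an Illumina NovaSeq instrument from stranded KAPA libraries, per the labels' protocols, and aligned and quantified with STAR and RSEM on GRCh38, per the submitters' processing notes, which give no versions. The deposited signal per gene was used as the authors gave it. That it was scaled to ERCC spike-ins was inferred from its values, the authors' step is not given in the sources used here, and the depth in reads is unknown. Samples were grouped by their labels. limma 3.58.1 (R 4.3.3) was fitted with a mean-variance trend to log2(value + 1) of 12547 endogenous genes, with 12 group means over 24 libraries. A fold change on this scale understates the change of low genes. Adjusted p-values are Benjamini-Hochberg over all genes, with a threshold of 0.05, and tests are two-sided. The fit was tested on simulated data. The 38 ERCC rows were left out of the tests. Members, lists and tests were chosen with earlier results of these data known. All members are described by role. Library values are given for members passing at 0 h or in a 0 to 8 h decay difference, and for the 3 highest and 3 lowest mean 8 h changes. Those of HSPA1A, HSF1, CHORDC1, DNAJB4 and TRAP1 were added outside this rule, after the results were seen. Of the other lists up to 3 passing genes per direction and comparison are named. Alternatives were library totals, quantile normalization, a pseudocount of 0.1, a mean value of at least 10, a replicate block, the compared groups alone, and each library left out.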

Additional observations from a re-analysis of the deposited data

Results flagged for a closer look

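Members are given here because the change over an interval differed between sgQKI+EV and sgNS+EV in a direct test of the decay difference (limma, Benjamini-Hochberg adjusted p over all genes). Over 0 to 8 h this was DNAJB1, at -0.59 (adjusted p = 0.025). Over 0 to 4 h it was DNAJB4 at -0.81 (adjusted p = 0.0365), CHORDC1 at -0.78 (adjusted p = 0.0347) and HSF2 at -0.59 (adjusted p = 0.0371). Over 4 to 8 h they included DNAJB4 at 0.73 (adjusted p = 0.0397), HSPA1A at -0.47 (adjusted p = 0.0283), HSF1 at -0.59 (adjusted p = 0.0265) and DNAJB1 at -0.59 (adjusted p = 0.0265). Each was lost when single libraries were left out in turn: without any of 8 for DNAJB1 over 0 to 8 h, 7 of 8 for DNAJB4 in both intervals, 6 of 8 for CHORDC1, HSF2 and HSPA1A, and 5 of 8 for HSF1 and for DNAJB1 over 4 to 8 h. The intervals share the 4 h libraries, and DNAJB4 has opposite signs in them. TRAP1, CCT7 and CCT3 were also lower over 4 to 8 h, and their calls were not checked without single libraries.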

How the results depend on the processing

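Every value rests on 2 libraries a group and on the spike-in scale, and the depth in reads is unknown. Among the single values, the replicate block left 76 of 76 with the same direction and side of the threshold, as did the minimum mean of 10, and a pseudocount of 0.1 left 74. Fits of the compared groups alone kept 68 and lost 7. Leaving out 1 library kept 168 values, lost 167 and reversed 0. Library totals kept 29, lost 32, gained 7 and reversed 8, and quantile normalization kept 28, lost 37, gained 7 and reversed 4. The 7 gained under each were higher 8 h calls of HSPB1 (3 genotypes), FKBP4 (3) and AHSA1 (sgNS+EV). The cause was not tested. Reversed at 8 h under library totals and quantile normalization were AHSA1 in sgQKI+QKI7-WT (0.52 and 0.47), in sgQKI+QKI7-△KH (0.58 and 0.55) and in sgQKI+EV (0.50 and 0.51), and HSPB1 in sgQKI+QKI7-△KH (0.53 and 0.33). Under library totals the sgQKI+QKI7-△KH against sgQKI+EV values at 0 h became -0.01 for AHSA1, -0.01 for BAG1, -0.03 for CCT3 and 0.00 for TCP1.

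Counts of members called moved as follows. In sgQKI+EV against sgNS+EV at 0 h the count was 18 with library totals (7.41% of all genes higher), 10 with quantile normalization (2.59% higher and 3.59% lower), 5 with the groups alone and 0 without any 1 library. In sgQKI+QKI7-WT against sgQKI+QKI7-△KH it was 0 with library totals, quantile normalization, the groups alone and without any 1 library. In sgQKI+QKI7-△KH against sgQKI+EV it was 0 with library totals and quantile normalization, 27 with the replicate block and 0 to 19 on leaving out 1 library. For the decay difference of sgQKI+EV minus sgNS+EV it was 2 with quantile normalization, 4 with the groups alone and 0 without any 1 library. Other times are other questions rather than processing: 16 were called at 4 h against 0 h in sgQKI+QKI7-WT, and 8 at 4 h and 13 at 8 h in sgQKI+EV against sgNS+EV. The counts were 0 at 4 h and 2 at 8 h in sgQKI+QKI7-WT against sgQKI+QKI7-△KH, 34 at 4 h in sgQKI+QKI7-WT against sgQKI+EV, and 3 at 4 h in sgQKI+QKI7-△KH against sgQKI+EV. Decay differences gave 3 over 0 to 4 h and 7 over 4 to 8 h in sgQKI+EV minus sgNS+EV, and 18 and 6 in sgQKI+QKI7-WT minus sgQKI+QKI7-△KH. Between groups, the deviations of same-numbered libraries correlated at r = -0.424 to 0.483. These mixed signs do not settle whether the numbers pair the samples. A block with crossed numbers, chosen after seeing the data, gave 6 members for sgQKI+QKI7-WT against sgQKI+QKI7-△KH at 0 h and 33 at 8 h against 0 h in sgQKI+QKI7-WT.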
